A study of Mus musculus with 29 samples.

Results

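The 7 mouse genes Oas1a, Oas1b, Oas1g, Oas2, Oas3, Oasl1 and Oasl2, chosen by gene symbol as the oligoadenylate synthetase family, were followed through 29 RNA-seq libraries of intestinal crypts, tissue and organoids. They are 7 of the 52929 gene identifiers in the count files. All were of strain C57BL/6. Epithelial crypts of small intestine came from 52-week-old mice, 4 of genotype H2B flox/flox (called floxed crypts here) and 4 of genotype H2BdIEC. Tumor tissue and adjacent tissue came from the same 4 H2B/p53dIEC mice, and a further 4 tissue libraries came from H2B/p53flox/flox mice (floxed tissue), which the labels also name adjacent normal tissue. Intestinal organoids, which are cultured epithelial structures, had 3 libraries each of H2B/p53flox/flox (floxed organoids, titled WT, and H2Bfl/fl in the series' design text), H2BdIEC and H2B/p53dIEC. H2B was read here as Rnaseh2b, a subunit of the nuclease RNase H2 that removes ribonucleotides from DNA, and p53 as Trp53. The Cre driver, the ages of the tissue mice and of the organoid donors, and the ties between organoid libraries and individual mice are not given in the sources used here. P-values for organoids therefore measure only the spread between libraries, which may be technical.

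Oligoadenylate synthetases sense double-stranded RNA in the cytoplasm and join ATP into short oligoadenylates, second messengers of the antiviral response that lead to the cutting of cellular and viral RNA. Their genes are induced by type I and type III interferons through transcription factors, among them Stat2 and Irf9, that bind the interferon-stimulated response element. Oas1a and Oas1g are single-unit synthetases, Oas2 and Oas3 are built of repeated synthetase units, and Oasl1 and Oasl2 are synthetase-like proteins with ubiquitin-like ends. Oas1b is known as the flavivirus resistance gene and is truncated in most laboratory strains; the annotation lists it as a polymorphic pseudogene.

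The members lie in 2 places on chromosome 5 (GRCm38). Oasl2 (114896936 to 114912234, plus strand) and Oasl1 (114923240 to 114937915, plus strand) span 40980 bases together. The other members share a cluster of 191320 bases with 5 further Oas1 copies. It holds Oas2 (120730333 to 120749853, minus strand), Oas3 (120753098 to 120777661, minus strand), Oas1b (120812635 to 120824163, plus strand), Oas1g (120876142 to 120887613, minus strand) and Oas1a (120896256 to 120907521, minus strand).

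**Figure D1:**
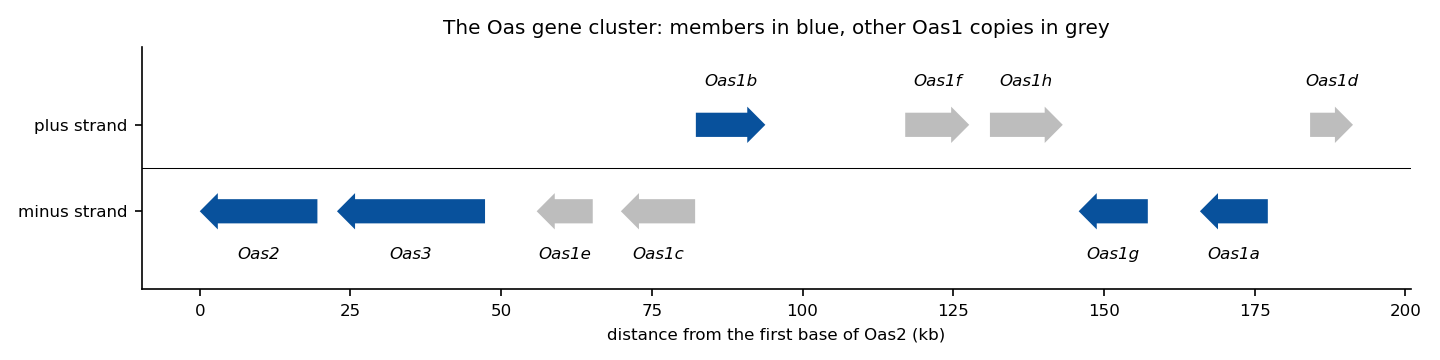
Map of the Oas cluster, with distance from the first base of Oas2 in kb on the x axis and the 2 strands on the y axis. Arrows point in the direction of transcription, and the 5 members in blue share the cluster with the 5 other Oas1 copies in grey over 191320 bases.

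Sequences before the gene starts are shown because the members are textbook interferon targets and the members moved together in some comparisons. Promoter windows (250 bases before and 50 bases from the start, RefSeq, GRCm38.p6) were found for 5 of the 7 members, not for Oas1b and Oas2. The 120 bases before the start are printed 5′ to 3′ on the gene's strand, with capitals for each match to the interferon-stimulated response element, searched on both strands as GAAA, any 2 bases and a further GAAA. Oas1c is a copy outside the 7 members, and its stretch fills the whole gap of 120 bases to the start of Oas1b, from which it points away.
Oas1a: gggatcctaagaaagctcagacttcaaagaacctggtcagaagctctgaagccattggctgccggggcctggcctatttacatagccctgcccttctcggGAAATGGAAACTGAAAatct
Oas1g: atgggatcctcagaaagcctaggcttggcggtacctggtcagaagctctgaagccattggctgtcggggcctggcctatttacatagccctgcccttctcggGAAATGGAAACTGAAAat
Oas1c: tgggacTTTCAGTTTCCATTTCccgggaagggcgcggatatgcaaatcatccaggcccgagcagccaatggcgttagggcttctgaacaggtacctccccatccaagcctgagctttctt
Oas3: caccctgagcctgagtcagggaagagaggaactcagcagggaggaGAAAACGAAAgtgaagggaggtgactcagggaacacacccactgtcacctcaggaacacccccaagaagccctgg
Oasl1: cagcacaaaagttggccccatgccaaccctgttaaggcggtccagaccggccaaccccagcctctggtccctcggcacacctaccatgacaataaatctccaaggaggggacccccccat
Oasl2: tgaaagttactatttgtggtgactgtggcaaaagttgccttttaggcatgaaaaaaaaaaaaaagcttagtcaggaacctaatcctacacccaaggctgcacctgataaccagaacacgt

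The stretches are, in the order printed, chr5:120907526-120907645, chr5:120887614-120887733, chr5:120812515-120812634, chr5:120777660-120777779, chr5:114923120-114923239 and chr5:114896814-114896933. Oas1a and Oas1g each held 2 overlapping matches joined as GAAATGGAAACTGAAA, at -20 to -5 in Oas1a and at -18 to -3 in Oas1g, where -1 is the base before the start. The same 16 bases lay on the other strand in the Oas1c window, which places them at -22 to -7 from the annotated start of Oas1b and in its reading direction. Oas3 held GAAAACGAAA at -75 to -66. The whole 300-base windows of Oasl1 and Oasl2 held no match to these letters. Matches were present in 3 of 5 member windows, in 9 of 21 windows of the interferon-stimulated genes listed for this study, and in 1131 of 32851 windows of all genes (3.44%). Of those 3 member windows, 2 are the near-copies Oas1a and Oas1g with the same 16 bases, so they are not independent. The gamma-interferon activation site, written TTCNNNGAA and also searched on both strands, was present in 1 of 5 member windows (Oas1a, -98 to -90) and in 8.30% of all windows. A match is a description of letters, not a measured binding site.

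Oas1a and Oas1g are near-copies, which bears on how reads were assigned. The first 60 bases of the coding sequence (GENCODE vM21 transcripts), with capitals where a letter differs from Oas1a, show this beside Oas1b.
Oas1a: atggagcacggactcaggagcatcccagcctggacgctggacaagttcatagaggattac
Oas1g: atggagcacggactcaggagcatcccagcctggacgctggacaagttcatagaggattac
Oas1b: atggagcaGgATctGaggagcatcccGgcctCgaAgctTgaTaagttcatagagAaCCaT

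Over the coding bases that aligned without a gap, Oas1a and Oas1g were 96.7% identical. Identity was 80.1% for Oas1a and Oas1b, 71.8% for Oas1a and Oas2 (1082 aligned positions), and 62.7% for Oasl1 and Oasl2. Coding lengths were 1101 bases in Oas1a and Oas1g, 1128 in Oas1b, 2253 in Oas2, 3414 in Oas3, 1533 in Oasl1 and 1524 in Oasl2. Of the 50-base stretches of its transcripts, Oas1a shared 57.6% with another gene, mostly Oas1g, and Oas1g shared 45.7%, mostly with Oas1a. The share was 2.78% in Oas1b and under that in the other 4 members. Oasl1 shares 38 exon bases with the antisense gene Gm13822, and the counting strand is not given. How the submitters assigned such reads is not given, so the split between Oas1a and Oas1g is uncertain, and their summed level is given beside them.

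Deposited counts per library ranged from 15545059 to 25913155 in crypts and from 5774771 to 21386586 in organoids. In tissue they ranged from 21884287 to 41504298, except in the floxed library 1320, which had 401365. The 4 floxed crypt libraries (at least 23118463) were all deeper than the 4 H2BdIEC crypt libraries (at most 18817537). Levels are CPM, each gene's share of its library's reads after TMM correction over all 29 libraries, and crypts, tissue and organoids cannot be told apart from their batches. Rnaseh2b, the targeted gene, stood at 8.99 to 18.6 CPM in floxed crypts and 2.75 to 3.52 in H2BdIEC crypts. It stood at 12.4 to 21.8 CPM in floxed tissue, 2.44 to 6.41 in adjacent and tumor tissue together, 12.4 to 15.1 in floxed organoids, 3.87 to 5.83 in H2BdIEC organoids and 0.888 to 1.79 in H2B/p53dIEC organoids. Trp53 stood at 37.3 to 48.5 CPM in floxed tissue against 12.7 to 30.9 in adjacent and tumor tissue together, and at 82.6 to 96.6, 61.0 to 91.3 and 8.27 to 9.65 CPM in floxed, H2BdIEC and H2B/p53dIEC organoids. Both follow the labels. Epithelial markers were present in every group, and in organoids the 18 immune markers summed to 2.70 to 4.71 CPM with 9 to 11 of them at 0. In these bulk libraries, fewer cells of a type and less RNA per cell cannot be told apart.

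**Figure D2:**
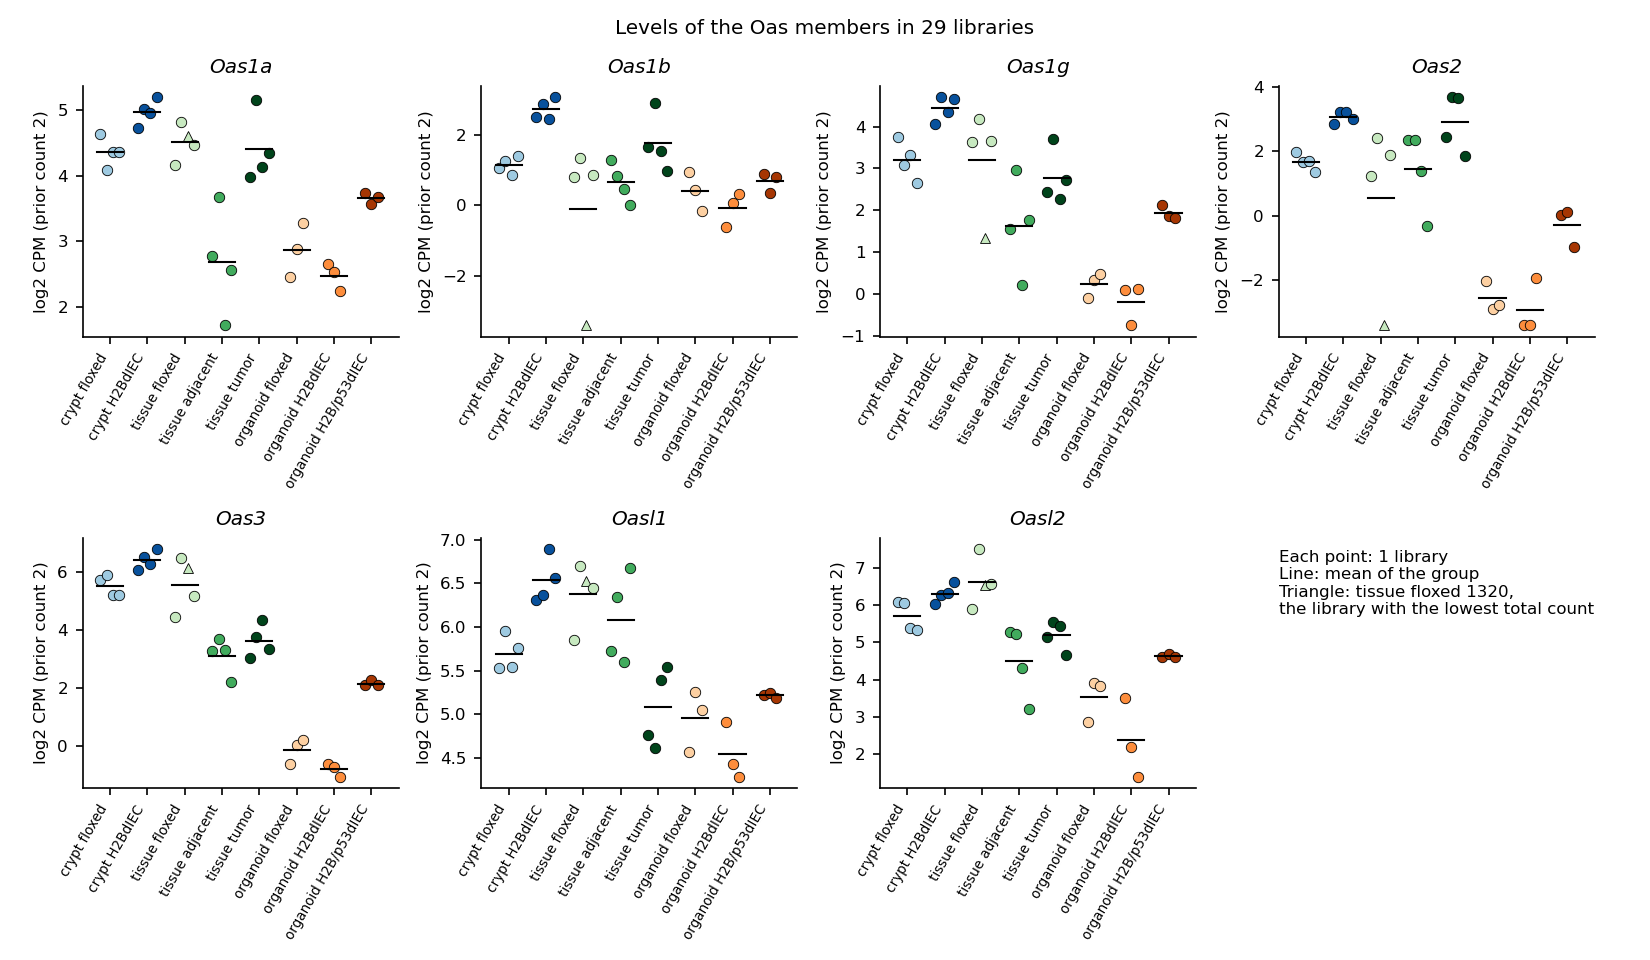
Level of each member (y axis, log2 CPM with a prior count of 2) in each of the 8 groups (x axis), with 1 point per library and a line at the group mean. H2BdIEC crypts had the highest mean CPM for 5 of the 7 members, and floxed and H2BdIEC organoids the lowest mean CPM of Oas2 and Oas3.

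By summed group means, which carry no spread between libraries, the family was most abundant in H2BdIEC crypts and least abundant in H2BdIEC organoids. Per kb of exon, the summed level of the 7 members was 92.2 CPM per kb in H2BdIEC crypts, 75.7 in floxed tissue, 51.9 in floxed crypts, 39.9 in tumors, 39.6 in adjacent tissue, 27.9 in H2B/p53dIEC organoids, 19.2 in floxed organoids and 13.8 in H2BdIEC organoids. Oasl1, a synthetase-like gene known for restraining interferon through Irf7 mRNA, was the highest member per kb in all 8 groups, from 33.7% of the summed level in tumors to 68.9% in adjacent tissue. Oas1a was next in all groups but floxed and adjacent tissue, where Oasl2 was. Oas2 was the lowest in 7 groups, and in tumors Oas3 was. Oas3, the largest synthetase, made 13.4% of the summed level in H2BdIEC crypts and 0.490% in H2BdIEC organoids.

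**Figure D3:**
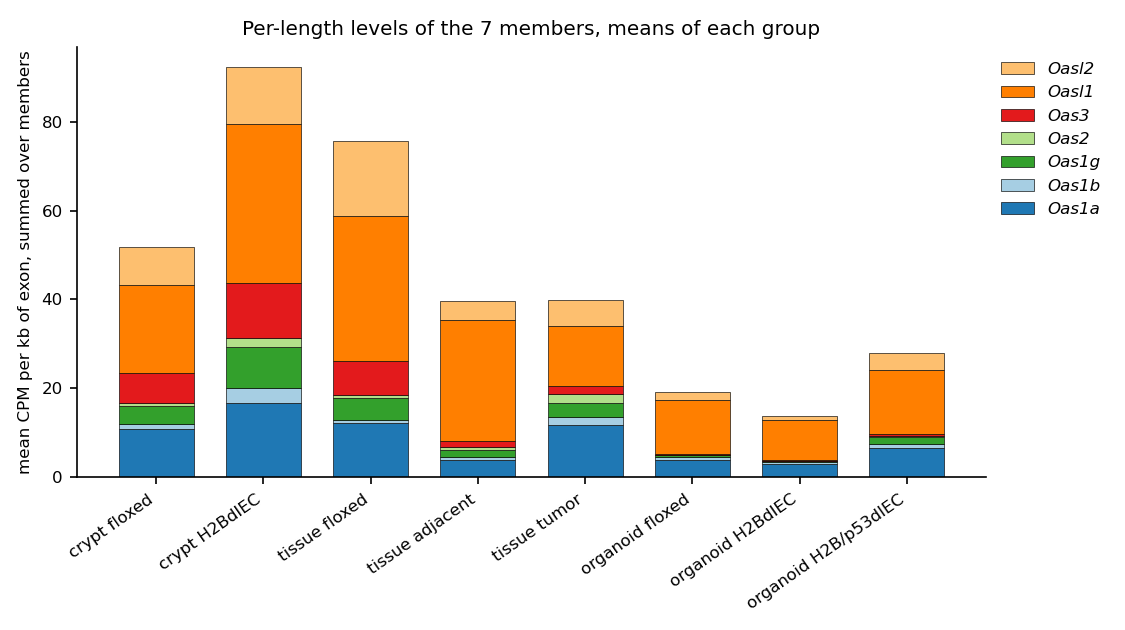
Stacked mean levels per kb of exon (y axis, CPM per kb) of the 7 members in the 8 groups (x axis). Oasl1 is the tallest segment in every bar, and the bars range from 13.8 in H2BdIEC organoids to 92.2 in H2BdIEC crypts.

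The order of the groups differed between members, and most neighbours in it overlapped. By mean CPM, H2BdIEC crypts came first for Oas1a, Oas1b, Oas1g, Oas3 and Oasl1, tumors for Oas2 (8.53 ± 4.77, SD, n = 4) and floxed tissue for Oasl2 (60.1 to 184 CPM, n = 4). H2BdIEC organoids came last for all 7. Oas1a was apart from its neighbours in H2B/p53dIEC organoids, above floxed organoids and below floxed crypts. Oas1b showed no gap at all, each group overlapping the next. Gaps named here are between neighbours only, and groups further along the order can overlap. Oas2 was apart between H2BdIEC crypts and adjacent tissue and between H2B/p53dIEC and floxed organoids. Tumors, first for Oas2, still overlapped adjacent tissue (tumor 1349 at 3.50 CPM, adjacent 1322 at 5.03 CPM). Oas3 fell into steps. Oas3 was apart between floxed crypts (46.7 ± 11.5 CPM, SD, n = 4) and tumors (13.0 ± 5.42 CPM, SD, n = 4), and between H2B/p53dIEC organoids (4.35 ± 0.322 CPM, SD, n = 3) and floxed organoids (0.840 ± 0.262 CPM, SD, n = 3). Oas1g was apart between tumors and H2B/p53dIEC organoids, Oasl1 between floxed crypts and H2B/p53dIEC organoids, and Oasl2 between H2B/p53dIEC and floxed organoids. Groups further along the order overlapped across the Oas1g, Oasl1 and Oasl2 gaps, but none did across either Oas3 gap.

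In crypts, where the H2BdIEC genotype was set against floxed controls, 6 of the 7 members rose and none fell (edgeR's quasi-likelihood test, adjusted over 14596 genes after Benjamini and Hochberg, called under 0.05). Among all genes tested 10.0% were called, 5.16% higher and 4.87% lower. The median log2 fold change was 0.90 over the 7 members and -0.01 over all genes. The truncated Oas1b rose most, 3.11-fold, and the synthetases Oas2 and Oas1g rose 2.66-fold and 2.31-fold.

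Oas1a, Oas1g and Oas1b were each higher in every H2BdIEC crypt than in any floxed crypt. Oas1a, a single-unit synthetase, stood at 24.8, 16.8, 20.5 and 20.4 CPM in the floxed crypts and at 26.3, 32.3, 30.9 and 36.4 CPM in the H2BdIEC crypts, each in order of mouse number. The groups did not overlap, but the first floxed crypt was close to the first H2BdIEC crypt, and the log2 fold change was 0.61 ± 0.14 (SE, edgeR adjusted p = 0.0241). Its near-copy Oas1g stood at 13.3, 8.38, 9.98 and 6.17 CPM in floxed and at 16.5, 25.9, 20.2 and 25.1 CPM in H2BdIEC crypts. It rose by 1.21 ± 0.23 on the log2 scale (SE, edgeR adjusted p = 0.0123), and again the first floxed crypt was the control nearest to the H2BdIEC libraries. Summed, Oas1a and Oas1g stood at 25.2 to 38.1 CPM in floxed and 42.8 to 61.5 CPM in H2BdIEC crypts without overlap, as far as the reads they share were counted. Oas1b stood at 1.98, 2.31, 1.70 and 2.54 CPM in floxed and at 5.62, 7.26, 5.41 and 8.25 CPM in H2BdIEC crypts. Its lowest H2BdIEC library was over the highest floxed one by more than the whole floxed range, with a log2 fold change of 1.64 ± 0.22 (SE, edgeR adjusted p = 0.00238).

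The larger synthetases differed in level but both rose. Oas2 stood at 3.87, 3.06, 3.16 and 2.49 CPM in floxed and at 7.10, 9.27, 9.16 and 8.02 CPM in H2BdIEC crypts, a log2 difference of 1.41 ± 0.19 (SE, edgeR adjusted p = 0.00245). Oas3, the sensor of long double-stranded RNA, stood at 53.3, 59.6, 36.6 and 37.3 CPM in floxed and at 68.1, 91.9, 77.1 and 112 CPM in H2BdIEC crypts. Its groups did not overlap, and its log2 fold change was 0.90 ± 0.19 (SE, edgeR adjusted p = 0.0203).

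The synthetase-like genes lay among the most abundant members by CPM. Oasl1 stood at 46.0, 61.9, 46.7 and 54.0 CPM in floxed and at 79.1, 82.7, 119 and 94.7 CPM in H2BdIEC crypts, a log2 difference of 0.85 ± 0.14 (SE, edgeR adjusted p = 0.00689). Oasl2, which keeps synthetase activity, stood at 68.2, 66.3, 42.0 and 40.2 CPM in floxed and at 65.2, 77.6, 80.2 and 98.9 CPM in H2BdIEC crypts. The 2 highest floxed crypts overlapped the first H2BdIEC crypt, and with a log2 fold change of 0.58 ± 0.20 (SE) it did not pass the edgeR test (adjusted p = 0.0862); the DESeq2 test called it (adjusted p = 0.0388). The 6 members that rose were the ones whose groups did not overlap, where 18.8% of all genes had groups apart and 8.54% were apart and higher.

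The crypt calls on Oas1a and Oas3 ended without the third floxed crypt (edgeR adjusted p = 0.0729 and 0.0611) or without the last H2BdIEC crypt (0.0774 and 0.0533). Marker sums of some cell types differed between the genotypes. The 8 acinar pancreas markers summed to 0.0541 to 0.471 CPM in floxed crypts, with 2 of them at 0. In H2BdIEC crypts they summed to 10.4 to 512 CPM (mean 138), and 0 of the 6 tested were called. The 4 Paneth cell markers summed to 4710 to 12289 CPM in floxed and 2046 to 3276 in H2BdIEC crypts, with 3 of 4 called lower. The 5 enterocyte markers summed to 15763 to 25589 and 26847 to 35132 CPM, with 2 of 5 called higher. The 18 immune markers overlapped, at 78.4 to 200 CPM in floxed and 101 to 231 CPM in H2BdIEC crypts, with S100a8 and S100a9 at 0 in the latter. Their part in the members' differences, and that of depth, was not tested.

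**Figure D4:**
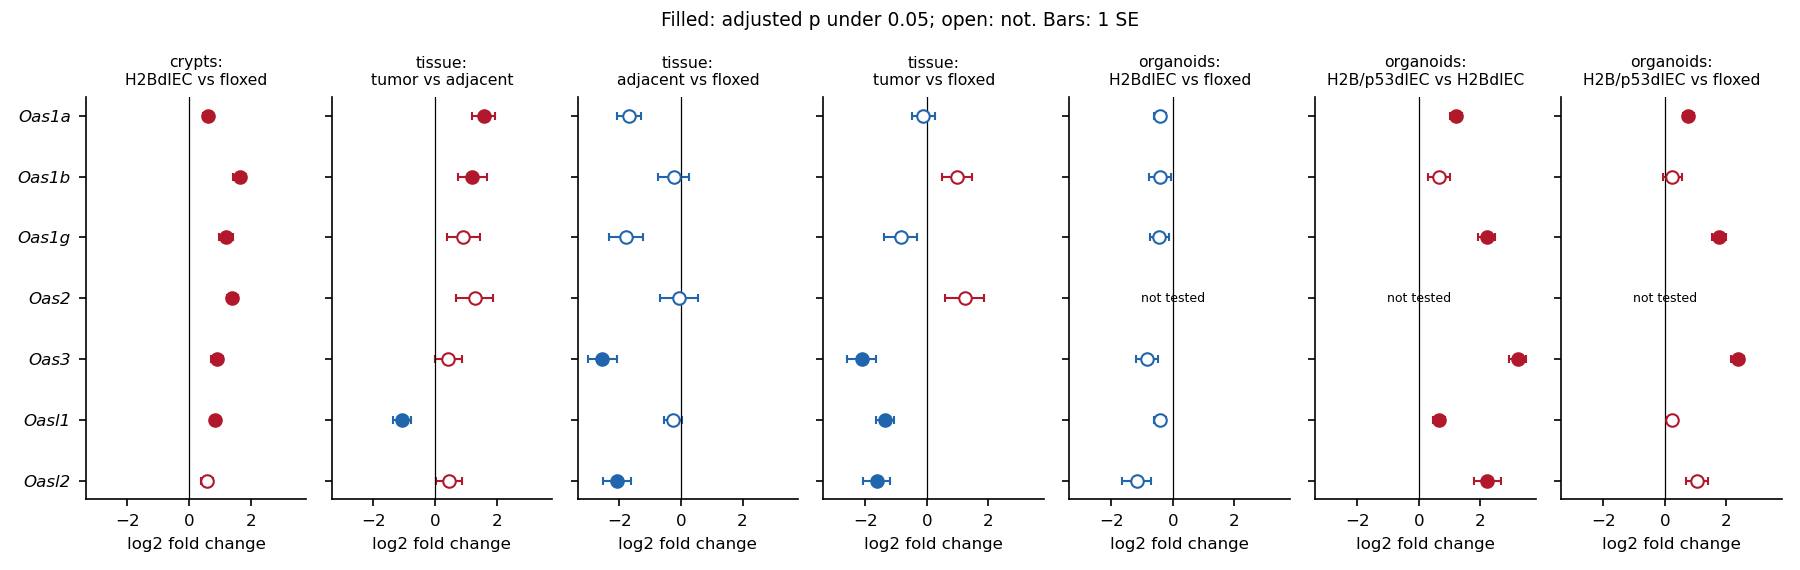
Log2 fold change of each member (x axis, 1 row per gene) in 7 comparisons, with bars of 1 SE; filled points had an edgeR adjusted p under 0.05. The crypt and H2B/p53dIEC organoid panels lie to the right of 0, and the panels of adjacent tissue against floxed tissue and of H2BdIEC organoids against floxed organoids lie to the left.

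In the tissue of H2B/p53dIEC mice, tumors and adjacent tissue of the same animals had different mixtures of members. Oas1a and Oas1b rose in tumors, Oasl1 fell, and the other 4 members did not pass the test. Among 17666 genes 46.9% were called, 23.0% higher and 24.0% lower, so 3 called of 7 is near the background share. The median log2 fold change was 0.92 over the members and -0.00 over all genes. The 3 tissue comparisons share libraries and are not independent.

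Oas1a stood at 5.85, 3.22, 12.7 and 6.74 CPM in adjacent tissue of mice 1349, 1323, 1322 and 1319 and at 20.2, 17.5, 35.3 and 15.7 CPM in their tumors. It was higher in the tumor of 4 of 4 mice, the groups did not overlap, and the log2 fold change was 1.58 ± 0.37 (SE, edgeR adjusted p = 0.00443). Groups were apart for 40.1% of all genes and apart and higher in tumors for 19.6%. Mouse 1322 held the highest Oas1a level in both tissues.
Oas1g stood at 3.32, 1.07, 7.68 and 2.84 CPM in adjacent tissue and at 6.48, 4.74, 12.9 and 5.28 CPM in tumors. It too was higher in 4 of 4 tumors and highest in mouse 1322, but its groups overlapped, and 0.92 ± 0.53 (SE, log2) did not pass (edgeR adjusted p = 0.173). With the mouse as a replicate block, in a fit of these 2 groups alone, the value was 1.08 and the edgeR adjusted p was 0.0421. The same 2-group fit without the block gave 0.90 (edgeR adjusted p = 0.228). Summed with Oas1a, Oas1g stood at 4.29 to 20.4 CPM in adjacent tissue and 21.0 to 48.2 CPM in tumors.
Oas1b stood at 0.917, 1.27, 1.69 and 2.35 CPM in adjacent tissue and at 1.88, 2.79, 7.42 and 3.03 CPM in tumors. Tumor 1349 lay below adjacent 1319, and the log2 fold change was 1.21 ± 0.47 (SE, edgeR adjusted p = 0.0489). That call ended with the mouse as a block (1.08, adjusted p = 0.0797) and in 8 of 12 removals of 1 library. It also ended in the fit of these 2 groups alone without a block (1.18, edgeR adjusted p = 0.0827). Without tumor 1322 the value was 0.66 (edgeR adjusted p = 0.202).

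Oas2 stood at 0.699, 2.54, 5.03 and 4.97 CPM in adjacent tissue and at 3.50, 12.5, 12.7 and 5.41 CPM in tumors. Mice 1349, 1323 and 1322 had higher tumors by 1.28 to 2.21 on the log2 scale and mouse 1319 by 0.06, and the groups overlapped (1.29 ± 0.60, SE, edgeR adjusted p = 0.0940). Oas3 stood at 4.45, 9.75, 12.7 and 9.58 CPM in adjacent tissue and at 10.1, 20.4, 13.6 and 7.99 CPM in tumors, higher in 3 of 4 mice and not past the test (0.44 ± 0.45, SE, edgeR adjusted p = 0.441).

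Oasl1 went the other way. It stood at 102, 48.4, 81.1 and 52.6 CPM in adjacent tissue and at 46.7, 42.0, 24.4 and 27.2 CPM in tumors, lower in 4 of 4 tumors with no overlap between groups. The smallest difference was in mouse 1323 (-0.36 on the log2 scale) and the largest in mouse 1322 (-1.77), and the fitted log2 fold change was -1.08 ± 0.29 (SE, edgeR adjusted p = 0.00881). Oasl2 stood at 9.13, 19.7, 37.1 and 38.9 CPM in adjacent tissue and at 25.1, 43.4, 46.4 and 35.2 CPM in tumors, higher in 3 of 4 mice and not past the test (0.45 ± 0.43, SE, edgeR adjusted p = 0.406).

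**Figure D5:**
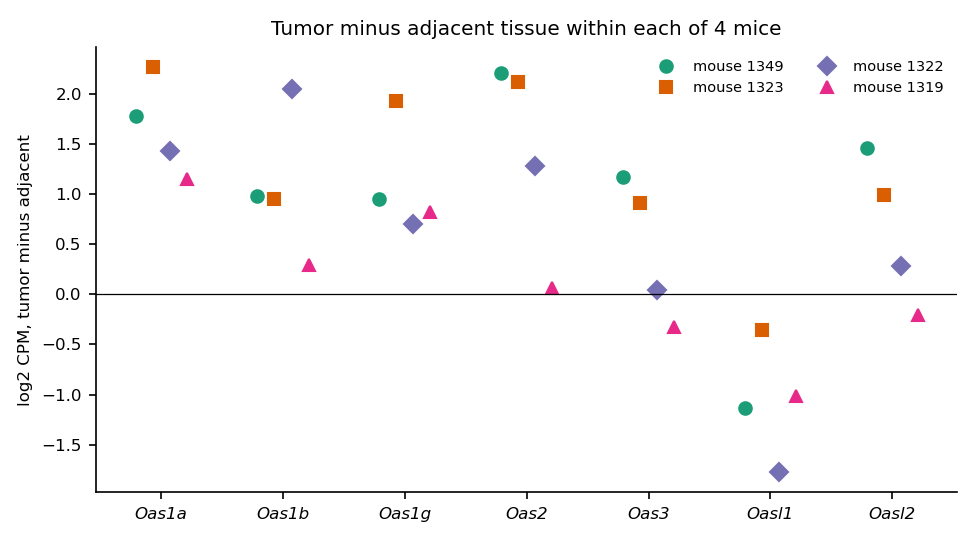
Difference in log2 CPM between tumor and adjacent tissue (y axis) of each member (x axis) within each of 4 mice, 1 symbol per mouse. Oas1a, Oas1b, Oas1g and Oas2 lie above 0 and Oasl1 below 0 in 4 of 4 mice, while Oas3 and Oasl2 cross 0 in mouse 1319.

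Cell type markers differed between these tissues as well. Epithelial markers summed to 9914 to 16098 CPM in adjacent tissue and 4448 to 7047 in tumors, with 4 of 5 lower. Immune markers summed to 426 to 1543 and 805 to 2642 CPM, with 3 of 18 higher and 4 lower. Stroma and muscle markers summed to 1955 to 3445 and 1524 to 11366 CPM. Their part in the members' differences was not tested.

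Adjacent tissue of H2B/p53dIEC mice was set against floxed tissue. Oas3 and Oasl2 fell, and all 7 members had negative log2 fold changes with a median of -1.69, against 0.04 over all genes. Of all genes 1.07% were called, 0.277% lower and 0.792% higher. Oas3 stood at 22.0, 88.8, 70.3 and 36.2 CPM in floxed tissue 1315, 1316, 1320 and 1321, all above the adjacent libraries given before, and fell by 2.55 ± 0.48 on the log2 scale (SE, edgeR adjusted p = 0.0302). Oasl2 stood at 60.1, 184, 94.5 and 95.5 CPM in floxed tissue, also without overlap, and fell by 2.08 ± 0.45 (SE, edgeR adjusted p = 0.0490).
Both calls ended without floxed 1320, the shallow library (edgeR adjusted p = 0.0674 for Oas3 and 0.0894 for Oasl2), while the values stayed at -2.43 and -2.12. The Oas3 call also ended without adjacent 1349, 1323 or 1319 and without floxed 1316 or 1321, and the Oasl2 call in each removal but that of tumor 1322. Calls over all genes fell too, from 189 of 17666 to 53 of 18247 without floxed 1320. They were 2 of 18201 without floxed 1316 and 0 of 18201 without floxed 1321. They were 84, 147 and 89 without adjacent 1349, 1323 and 1319. Without tumor 1323 they rose to 307 of 18032, and Oasl2 was still not called. The DESeq2 test called Oas1a (-1.66, adjusted p = 0.00278) and Oas1g (-1.71, adjusted p = 0.0431) as well.

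Oas1a stood at 17.8, 27.9, 24.2 and 21.9 CPM in floxed tissue, all above the adjacent libraries, and its value of -1.69 ± 0.38 (SE) did not pass (edgeR adjusted p = 0.0543). Oas1g stood at 12.2, 18.2, 2.42 and 12.5 CPM in floxed tissue, where floxed 1320 rests on 1 count, with -1.77 ± 0.55 (SE, edgeR adjusted p = 0.124). Groups were apart for 3 members, all lower, and for 14.1% of all genes, 8.22% being apart and higher. Oas1b and Oas2 had 0 counts in floxed 1320, which allows up to 7.27 CPM, so their 0 in that library was not informative. In the other 3 floxed libraries Oas1b stood at 1.65, 2.46 and 1.72 CPM and Oas2 at 2.28, 5.28 and 3.63 CPM, overlapping adjacent tissue. Oasl1 stood at 57.6, 103, 92.1 and 87.1 CPM in floxed tissue, overlapping as well (-0.27 ± 0.29, SE, edgeR adjusted p = 0.677). Epithelial marker sums were 14077 to 15491 CPM in floxed tissue, enterocyte sums 8991 to 11216 against 13509 to 82900 in adjacent tissue, and immune sums 514 to 1156; their part was not tested.

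Against the same floxed libraries, Oas3, Oasl1 and Oasl2 fell in tumors, where 54.6% of all genes were called, 28.6% higher and 26.1% lower. The log2 fold changes were -2.12 ± 0.47 for Oas3 (SE, edgeR adjusted p = 0.00231), -1.35 ± 0.29 for Oasl1 (adjusted p = 0.00206) and -1.63 ± 0.44 for Oasl2 (adjusted p = 0.00772). All 3 had groups apart, where 49.1% of all genes did and 27.5% were apart and higher, and all 3 were called without floxed 1320 (-1.99, -1.30 and -1.67). Oas1a (-0.11 ± 0.37, SE) and Oas1g (-0.85 ± 0.54) did not pass the edgeR test (adjusted p = 0.815 and 0.195), nor did Oas1b (0.97 ± 0.49) and Oas2 (1.23 ± 0.63, adjusted p = 0.111 and 0.115). The value of Oas1a changed sign without tumor 1319 or floxed 1316. Epithelial markers summed to 4448 to 7047 CPM in tumors and 14077 to 15491 in floxed tissue, with 5 of 5 lower. Of 9 stroma and muscle markers 5 were higher and 3 lower, and of 18 immune markers 5 were higher and 5 lower; their part was not tested.

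Between H2BdIEC and floxed organoids none of the 6 members tested was called by edgeR or by DESeq2, where 4.06% of 15701 genes were called by edgeR, 2.08% higher and 1.97% lower. All 6 log2 fold changes were negative, with a median of -0.43 against -0.00 over all genes. Of the 6, 3 had an unadjusted p under 0.05, a threshold for which no share of all genes is given here. Fitted without a low-count filter, 2 members (Oasl1 and Oasl2) were called lower, where 1494 of 27095 genes were called. The H2BdIEC organoid libraries (5774771 to 15136734 counts) were all shallower than the floxed ones (16803119 to 21386586), and the part of depth was not tested. Groups overlapped for all 6, while 22.0% of all genes had groups apart and 11.4% were apart and higher.

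The organoids with both genes deleted stood higher. From H2BdIEC to H2B/p53dIEC organoids 5 of 6 members tested rose and none fell, where 29.3% of all genes were called, 13.9% higher and 15.4% lower. The median log2 fold change was 1.70 over the members and 0.00 over all genes. From floxed to H2B/p53dIEC organoids 3 of 6 rose, where 33.3% were called, 16.7% higher and 16.6% lower. The organoid comparisons share libraries, and the titles of floxed and H2BdIEC organoids share a prefix that those of H2B/p53dIEC lack, so genotype and a possible difference in preparation cannot be told apart.

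Oas3 differed most. It stood at 0.546, 0.927 and 1.05 CPM in floxed organoids A, B and C, at 0.553, 0.502 and 0.382 in H2BdIEC A, B and C, and at 4.18, 4.72 and 4.15 in H2B/p53dIEC 1, 2 and 3. Each H2B/p53dIEC library was well above the 6 others. The log2 fold change was 3.21 ± 0.27 against H2BdIEC (SE, edgeR adjusted p = 6.45e-06) and 2.37 ± 0.22 against floxed organoids (adjusted p = 8.96e-06).
Oas2, built of repeated synthetase units like Oas3, was at the limit of detection. Its counts were 3, 1 and 1 in floxed, 0, 0 and 3 in H2BdIEC and 18, 19 and 7 in H2B/p53dIEC organoids, and it did not pass the low-count filter of the organoid fit. DESeq2, run without that filter, called it higher in H2B/p53dIEC than in H2BdIEC and in floxed organoids (log2 3.47 and 3.31, DESeq2 adjusted p = 0.00905 and 0.00254), and so did edgeR in each of 7 removals of 1 library after which it passed the filter. In those removals Oas2 passed only through the H2B/p53dIEC libraries, where it was high, so the edgeR calls are no separate support. The 0 counts allow up to 0.415 CPM in H2BdIEC A and 0.188 CPM in H2BdIEC B, and each of the H2B/p53dIEC libraries held more counts than any other organoid library.

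Oas1a stood at 5.41, 7.25 and 9.63 CPM in floxed, at 6.22, 5.71 and 4.64 in H2BdIEC and at 13.2, 11.8 and 12.6 in H2B/p53dIEC organoids. It rose by 1.19 ± 0.19 against H2BdIEC (SE, log2, edgeR adjusted p = 0.000783) and by 0.77 ± 0.17 against floxed organoids (adjusted p = 0.00477). Oas1g stood at 0.843, 1.17 and 1.30 CPM in floxed, at 0.968, 0.502 and 0.983 in H2BdIEC and at 4.24, 3.54 and 3.44 in H2B/p53dIEC organoids.
It rose by 2.21 ± 0.27 against H2BdIEC (SE, log2, edgeR adjusted p = 0.000107) and by 1.76 ± 0.23 against floxed organoids (adjusted p = 0.000119). The sum of both stood at 15.3 to 17.5 CPM in H2B/p53dIEC organoids, above 6.25 to 10.9 in floxed and 5.62 to 7.19 in H2BdIEC organoids.
Oas1b stood at 1.84, 1.25 and 0.798 CPM in floxed, at 0.553, 0.940 and 1.15 in H2BdIEC and at 1.73, 1.18 and 1.66 in H2B/p53dIEC organoids. It passed neither test (0.66 ± 0.35 against H2BdIEC and 0.24 ± 0.30 against floxed, SE, edgeR adjusted p = 0.179 and 0.570).

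Oasl2 spread widely among H2BdIEC organoids. It stood at 7.19, 14.87 and 13.97 CPM in floxed, at 11.3, 4.45 and 2.51 in H2BdIEC and at 24.1, 25.6 and 24.5 in H2B/p53dIEC organoids. H2BdIEC A, the shallowest organoid library, was the highest of its group, and the H2B/p53dIEC libraries were above all others. Oasl2 rose by 2.23 ± 0.44 against H2BdIEC (SE, log2, edgeR adjusted p = 0.00586), and against floxed organoids 1.05 ± 0.37 did not pass (adjusted p = 0.0576; 0.0196 when only those 2 groups were fitted).
Oasl1 stood at 23.6, 38.0 and 33.2 CPM in floxed, at 30.2, 21.4 and 19.4 in H2BdIEC and at 37.3, 37.8 and 36.2 in H2B/p53dIEC organoids. It rose by 0.66 ± 0.18 against H2BdIEC (SE, log2, edgeR adjusted p = 0.0179), a call that ended without H2BdIEC B or C or H2B/p53dIEC 1 or 2. Against floxed organoids it overlapped (0.24 ± 0.17, SE, edgeR adjusted p = 0.306). Groups were apart and higher for 6 of 6 members against H2BdIEC, where 45.7% of all genes were apart and 23.0% were higher, and for 4 of 6 against floxed organoids, where 54.4% were apart and 27.2% were higher.
Immune markers were near 0 in all 3 organoid groups (2.94 to 4.71 CPM in floxed, 2.70 to 2.91 in H2BdIEC and 3.37 to 4.16 in H2B/p53dIEC organoids), and stroma and muscle markers summed to at most 0.843 CPM. Paneth markers summed to 924 to 1058 CPM in floxed, 736 to 748 in H2BdIEC and 864 to 890 in H2B/p53dIEC organoids, and their part was not tested.

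The H2BdIEC effect in crypts was compared with that in organoids in 1 fit of 14 libraries. The difference, crypt effect minus organoid effect, passed the test for Oas1a, Oas1b, Oas1g and Oasl1, where 4.02% of 17163 genes were called, 2.30% higher and 1.72% lower. It was positive for all 7 members with a median of 1.66, against 0.02 over all genes. For Oas3 (1.75 ± 0.49, SE), Oasl2 (1.69 ± 0.58) and Oas2 (1.499 ± 0.98) it did not pass (edgeR adjusted p = 0.0583, 0.130 and 0.455). The difference was 1.04 ± 0.27 for Oas1a, 2.09 ± 0.43 for Oas1b, 1.66 ± 0.45 for Oas1g and 1.27 ± 0.26 for Oasl1 (SE, log2, edgeR adjusted p = 0.0405, 0.0129, 0.04997 and 0.0162). Oas1b was called in each removal of 1 library, Oasl1 in each but those of H2BdIEC or floxed organoid B (adjusted p = 0.0579 and 0.0569), while Oas1a was lost in 10 of 14 removals and Oas1g in 12 of 14. The Oas1g call was also lost with DESeq2 size factors (adjusted p = 0.0529), upper-quartile factors (0.0558), a filter of at least 1 CPM (0.0501) and non-robust dispersion (0.0573). Setting, age and batch cannot be told apart in this difference.

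Genes that act beside the synthetases showed other patterns. Abce1, known as a ribosome recycling factor, rose in tumors against adjacent tissue (0.75 ± 0.24, SE, edgeR adjusted p = 0.0230) and against floxed tissue (1.07 ± 0.25, adjusted p = 0.00311). It was not called in crypts or organoids. Pde12, a phosphodiesterase that degrades oligoadenylates, was called in none of the 7 comparisons, with log2 fold changes from -0.13 to 0.16.

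Other genes of the interferon pathway, 56 listed genes found in the annotation, gave the following counts. In crypts 14 of 51 tested rose and none fell, with a median of 0.42, beside 5.16% of all genes higher and 4.87% lower. Rtp4, Stat2, Isg15 and Irf7 had the smallest p. Isg15, the ubiquitin-like interferon product, rose by 1.35 ± 0.24 (SE, log2, edgeR adjusted p = 0.00899) and Stat2, one of the factors named above, by 0.97 ± 0.16 (adjusted p = 0.00767). In tumors against adjacent tissue 10 of 51 rose and 10 fell, beside 46.9% of all genes called, among them Tmem173 (STING, the DNA-sensing adaptor), which rose by 2.49 ± 0.33, and the RNA sensor Ifih1, which fell by 1.498 ± 0.20 (SE, log2, edgeR adjusted p = 0.000123 and 0.000131). Ifngr1 and Cmpk2 also fell. In adjacent against floxed tissue none of 51 rose and 5 fell, beside 0.792% of all genes higher and 0.277% lower. Ddx60, Ifih1, Dtx3l and Parp12 had the smallest p there. In tumors against floxed tissue 3 rose and 20 fell, beside 54.6% of all genes called.
In H2BdIEC organoids none of 48 tested was called by edgeR, beside 4.06% of all genes, and Isg15 was at -1.20 ± 0.32 (SE, log2, adjusted p = 0.0594). From H2BdIEC to H2B/p53dIEC organoids 30 of 48 rose and 7 fell, with a median of 0.73, beside 13.9% of all genes higher and 15.4% lower. Rsad2, which makes an antiviral nucleotide analog, rose by 3.81 ± 0.25 and Xaf1 by 4.04 ± 0.34 (SE, log2, edgeR adjusted p = 7.94e-07 and 5.71e-06), while the interferon-gamma receptor chain Ifngr1 fell by 0.78 ± 0.07 (adjusted p = 8.48e-06). Against floxed organoids 28 of 48 rose and 6 fell, beside 16.7% of all genes higher and 16.6% lower, with Rsad2, Ifngr1, Xaf1 and Sp100 at the smallest p. For the difference between crypts and organoids 4 of 51 were called, all higher: Stat2, Isg15, Ifi35 and Bst2. Of all genes 4.02% were called in that difference, 2.30% higher and 1.72% lower.

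Of the other Oas1 copies in the cluster, Oas1h had at most 1 count in any library and Oas1d at most 13. Oas1e had 17 to 128 counts in each of 8 crypt libraries, and at most 6 in any tissue library and 2 in any organoid library. In crypts it was at 1.42 ± 0.44 (SE, log2) and did not pass the edgeR test (adjusted p = 0.0654). Oas1c, whose window is printed above, rose in tumors against adjacent tissue (1.98 ± 0.40, SE, log2, edgeR adjusted p = 0.00187) and in H2B/p53dIEC against floxed organoids (1.12 ± 0.22, adjusted p = 0.00191). In crypts Oas1c was at 1.02 ± 0.29 and did not pass (adjusted p = 0.0519).
Oas1f had its own pattern in organoids. It had 10, 12 and 5 counts in floxed, 9, 40 and 55 in H2BdIEC and 6, 16 and 7 in H2B/p53dIEC organoids. It rose by 2.56 ± 0.38 from floxed to H2BdIEC (SE, log2, edgeR adjusted p = 0.00234) and fell by 2.23 ± 0.38 from H2BdIEC to H2B/p53dIEC organoids (adjusted p = 0.00105), at levels of at most 3.003 CPM. Oas1f passed the low-count filter through the H2BdIEC libraries, the group where it was high, so these tests are no separate support.

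Members differed in how they moved together, described by Pearson's r of log2 CPM within each setting, where libraries share groups and batch. Over the 12 tissue libraries Oas3 and Oasl2 had r = 0.93 (Spearman's rho 0.91) and Oas1b and Oas2 had r = 0.96 (rho 0.94), while Oasl1 and Oas1b had r = -0.59 (rho -0.63). Floxed 1320, with 0 counts for Oas1b and Oas2, is among those 12. Over the 9 organoid libraries Oas1a and Oas3 had r = 0.96 (rho 0.93) and Oasl1 and Oasl2 r = 0.96 (rho 0.88), and over the 8 crypt libraries Oas1g and Oas2 had r = 0.96 (rho 0.98).
Likeness to the family was measured as r with the mean of the 6 members tested in every setting, over 29 libraries and 11365 genes. Among the 8 protein-coding genes most like it were Parp14 (0.94), Herc6 (0.94), Trim34a (0.93), Itgae (0.91), Irf9 (0.91), Ifi35 (0.91) and Parp10 (0.91). These values follow differences between settings as well as genotypes. With each group's mean removed, Parp10 ranked 15, Parp14 16, Herc6 61, Trim34a 146, Irf9 349, Itgae 734 and Ifi35 1316, and Parp9, Gbp8 and Rnf213 led with 0.86, 0.86 and 0.85.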

How the data were processed

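RNA was sequenced from 29 libraries in 8 groups with strand-specific poly(A) libraries, per the labels' protocols. The authors deposited raw read counts per gene, 1 file per library, with Ensembl identifiers, and these counts were not normalized. The submitters' processing notes name cutadapt 1.5 and 1.9, Trimmomatic 0.36, TopHat2 2.0.14, HTSeq and GRCm38; their settings, the annotation release and the strand setting are not given in the sources used here. Summary lines that name no gene, such as non-unique alignments, were left out of totals and tests. Of 52929 identifiers 52489 matched GENCODE vM21.

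The members and gene lists were chosen with earlier results of these data known. Counts were fitted with edgeR 4.0.16 (R 4.3.3; filterByExpr, TMM, robust quasi-likelihood test) separately for crypts, tissue, organoids and the crypt and organoid difference, with Benjamini-Hochberg adjustment over all genes tested and a call at an adjusted p under 0.05. The scripts were tested on simulated data. Alternatives were DESeq2 1.42.0 as size factors and as a test, upper-quartile factors, other filters (none, or at least 1 CPM), non-robust dispersion, 2-group fits, replicate blocks and leaving out each library. Named genes were the 7 members, the other Oas1 copies, Abce1 and Pde12, the targeted genes, the 4 interferon-list genes of smallest p in each comparison and the 8 genes most like the family mean (mean log2 CPM of at least 1); 2 genes that the rule names are not reported here. No 2 libraries were identical. Limits for 0 counts use 3 counts and cover counting error only. Tumor and adjacent libraries of 1 number come from the same mouse; deviations from group means correlated across genes at 0.16, -0.16, 0.12 and 0.06 in mice 1349, 1323, 1322 and 1319. Levels between genes use exon length from the annotation, and motif counts use RefSeq windows. Coding sequences were aligned with Biopython 1.88.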

Additional observations from a re-analysis of the deposited data

Results flagged for a closer look

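The effect of the H2BdIEC genotype on 4 members differed between crypts and organoids by a test of the difference itself, fitted over 14 libraries with edgeR. Crypt effect minus organoid effect was 1.04 for Oas1a, 2.09 for Oas1b, 1.66 for Oas1g and 1.27 for Oasl1 on the log2 scale (edgeR adjusted p = 0.0405, 0.0129, 0.04997 and 0.0162). Of all genes 4.02% were called in that difference. All 4 were higher in H2BdIEC than in floxed crypts in 4 of 4 libraries without overlap, where 8.54% of all genes were apart and higher. Their organoid groups overlapped, where 22.0% of all genes were apart. The 4 were picked by the test on these same libraries, so this is no separate support. Crypts and organoids differ in culture and possibly in batch and age, the organoid donors' ages not being given, and these cannot be told apart here. The Oas1a call was lost in 10 and the Oas1g call in 12 of 14 removals of 1 library, and the Oas1g call also under 4 other settings. On CPM, no library stood apart from its group by Dixon's criterion (the gap to the nearest library as a share of the group's range, against the tabled critical value) in 35 tests of members and groups of 4. On log2 CPM, 1 of 35 did: Oas1b in floxed tissue 1320 (0.885), where its count was 0 in a library of 401365 counts. Chance gives about 1 in 20.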

How the results depend on the processing

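Of 938 log2 fold changes of members recomputed under an alternative, 844 kept their direction and their side of the threshold, 67 kept their direction and were no longer called, 21 became called and 6 changed sign. The count of members called in adjacent against floxed tissue, 2 as reported, was 1 with DESeq2 size factors, 1 with upper-quartile factors, 1 without a low-count filter and 4 with the DESeq2 test. Without a low-count filter the count was 2 in place of 0 in H2BdIEC against floxed organoids, where 1494 of 27095 genes were called. It was 5 in place of 3 in H2B/p53dIEC against floxed organoids, where 5843 of 27095 were called. Leaving out 1 library at a time gave 4 to 6 called members in crypts, 2 to 3 in tumors against adjacent tissue, 0 to 3 in adjacent against floxed tissue, 3 in each removal in tumors against floxed tissue and 0 in each removal in H2BdIEC against floxed organoids. The range was 4 to 6 in H2B/p53dIEC against H2BdIEC organoids, 3 to 5 against floxed organoids and 1 to 5 for the difference between crypts and organoids, where the lowest count came without H2BdIEC organoid B or floxed organoid B. In adjacent against floxed tissue Oas2, at -0.06, changed sign with the DESeq2 test (0.00802), and over removals it ranged from -0.33 to 0.30, positive without adjacent 1349 (0.27), adjacent 1323 (0.02) or floxed 1316 (0.30). In tumors against floxed tissue Oas1a, at -0.11, ranged from -0.42 to 0.0238, positive without tumor 1319 (0.0238) or floxed 1316 (0.01). The causes were not tested.

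The mouse block was fitted on the tumor and adjacent libraries alone. It called 3 members, Oas1a, Oas1g (1.08, edgeR adjusted p = 0.0421) and Oasl1, but not Oas1b (1.08, adjusted p = 0.0797). The fit of all tissue libraries had called Oas1a, Oas1b and Oasl1. A fit of the same 2 groups without the block called 2 members, Oas1a and Oasl1. Oas1b already did not pass there (1.18, edgeR adjusted p = 0.0827), so its loss cannot be laid to the block. A block on the shared letters of floxed and H2BdIEC organoids called 0 members, as without it. Their deviations correlated at 0.00, -0.18 and 0.10, so the letters were not treated as pairs; whether libraries of 1 letter share an animal is not given. The shallow floxed tissue library, with 401365 counts, and the low counts of Oas2 in organoids limit what could be detected there.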
